A study of Mus musculus with 28 samples.

Results

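The 5 genes described here encode the start of ectodysplasin signalling: the ligand Eda, the receptors Edar, Eda2r and Tnfrsf19, and the adaptor Edaradd. They were chosen by name for their roles, with earlier results of these data known, and are 5 of the 55536 genes counted. All 5 had enough counts to be tested. Ectodysplasin A is a membrane-bound ligand of the tumour necrosis factor (TNF) family that furin releases from the cell. Its A1 form binds Edar, which recruits Edaradd to switch on NF-kappaB and is known for the making of hair placodes, sweat glands and teeth. Its A2 form binds Eda2r, which is also known as a target gene of p53, and Tnfrsf19 (Troy) is a related orphan receptor found in hair follicle and epidermal progenitors. Gene counts do not separate the A1 and A2 forms of Eda.

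RNA was measured by poly(A)-selected sequencing in interfollicular epidermis (IFE) of back and tail skin from mice carrying a tamoxifen-activated Cre (CreER) and a RosatdTomato reporter. The genotypes, all labelled wild type, were Slc1a3CreER, AspmCreER, K14CreER and Dlx1CreER, each crossed to RosatdTomato. Tamoxifen was given for 5 days between postnatal days 30 and 34, to the mice of every group, and tissue was harvested after 2 further weeks, on postnatal day 49, when the hair follicles rest (telogen). For each line a labelled sample, named by the driver (Slc1a3+, Aspm+, K14+ or Dlx1+), stood beside a sample of total IFE. The CreER marks cells in which its driver gene was active when tamoxifen was given, together with their descendants, so the labelled cells are not defined by the driver's expression at harvest. Back skin gave 3 libraries for each of the Slc1a3 and Aspm groups and 2 for each of the K14 groups, and tail skin gave 2 for each of the Slc1a3, Aspm and Dlx1 groups, which made 28 libraries in 12 groups. The labels do not say that replicates came from separate animals, so the spread that the p-values rest on may be technical. The series was set up to compare basal lineages marked by Slc1a3, Dlx1 and Aspm.

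The libraries held 7738262 to 37670589 counts. The shallowest, replicate 4 of the back Slc1a3 total, also had the fewest genes with a count, 14436. Basal keratinocyte genes (Krt5, Krt14, Col17a1, Itga6 and Itgb4) summed to between 40990 and 115962 CPM, the usual unit of counts relative to library size, in every library, whereas Merkel cell markers summed to at most 2.81 CPM. The tail scale keratins Krt31, Krt36 and Krt84 summed to 1.04 to 89.5 CPM in back skin and 1789.9 to 6199 CPM in tail skin. Levels below are in CPM after TMM scaling (trimmed mean of M values). Levels of different genes were compared only as CPM per kilobase of exon.

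The genes lie on 4 chromosomes of the mouse genome GRCm38, and no exon of a neighbouring gene overlaps their exons. Eda (ENSMUSG00000059327) spans chrX:99975606-100400762 on the plus strand, and Eda2r (ENSMUSG00000034457) chrX:97333840-97377216 on the minus strand. Edar (ENSMUSG00000003227) spans chr10:58600789-58675654, Edaradd (ENSMUSG00000095105) chr13:12472632-12520438 and Tnfrsf19 (ENSMUSG00000060548) chr14:60963875-61046490, all on the minus strand. The promoters of the 3 genes that differed between skin sites in every comparison below are printed to show how unlike they are, from RefSeq (GRCm38.p6). They are read along the gene's strand up to the base before the start, at chrX:99975356-99975605 for Eda, chr13:12520451-12520700 for Edaradd and chrX:97377217-97377459 for Eda2r. Capitals mark a match to the TATA box letters TATAAA.
Eda: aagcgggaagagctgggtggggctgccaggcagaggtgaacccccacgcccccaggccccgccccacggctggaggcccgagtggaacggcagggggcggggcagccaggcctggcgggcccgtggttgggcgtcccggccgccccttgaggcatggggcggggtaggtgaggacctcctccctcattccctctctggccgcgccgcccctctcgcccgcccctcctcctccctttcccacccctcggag
Edaradd: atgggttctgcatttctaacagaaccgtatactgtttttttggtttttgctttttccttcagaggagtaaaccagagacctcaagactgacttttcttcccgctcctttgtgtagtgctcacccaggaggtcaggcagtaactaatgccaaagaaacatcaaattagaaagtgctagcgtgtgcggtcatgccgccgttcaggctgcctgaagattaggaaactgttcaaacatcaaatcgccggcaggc
Eda2r: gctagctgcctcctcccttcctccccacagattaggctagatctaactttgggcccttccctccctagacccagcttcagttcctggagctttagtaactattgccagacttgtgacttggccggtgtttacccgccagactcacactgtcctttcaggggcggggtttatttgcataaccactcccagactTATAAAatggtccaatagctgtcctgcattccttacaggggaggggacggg

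The Eda window was 75.6% G and C with 19 CpG dinucleotides, and 96.4% of 32851 mouse promoter windows of 250 bases had a lower G and C content. The Edaradd window was 46.0% G and C with 8 CpG and the Eda2r window 53.2% with 4, against medians of 52.4% and 6 over all promoters. The Eda2r window held a TATA box match that begins 51 bases before the start, and 7.59% of all promoters held such a match. Neither of the other 2 windows held these letters. No window of the 5 genes matched the AP-1 letters TGANTCA (6.75% of all promoters) or the kappaB motif (7.25%), searched on both strands. The LEF/TCF letters CTTTGNT, on both strands, matched once upstream of Edar and once upstream of the inner of 2 starts of Tnfrsf19, and in 16.0% of all promoters. None of the motifs overlapped another in these windows. The absence of a match says only that these letters are not in these windows.

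Of the 5 genes Tnfrsf19 was the most abundant per exon length at both sites, and Edar was at the edge of detection. In back skin the median over 16 libraries was 95.4 CPM per kilobase for Tnfrsf19, 15.7 for Edaradd, 2.57 for Eda2r, 2.16 for Eda and 0.116 for Edar. Eda and Eda2r overlapped in back skin, at 0.917 to 3.21 and 2.04 to 3.20 CPM per kilobase, while the other neighbours in this order did not. In tail skin the order of ligand and alternative receptor was the other way round. The medians over 12 tail libraries were 55.4 for Tnfrsf19, 6.53 for Edaradd, 4.57 for Eda, 0.649 for Eda2r and 0.0472 for Edar, again in CPM per kilobase. There Edaradd and Eda overlapped, at 4.76 to 7.92 and 3.36 to 5.15 CPM per kilobase, and Eda was above Eda2r in all 12 libraries.

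**Figure D1:**
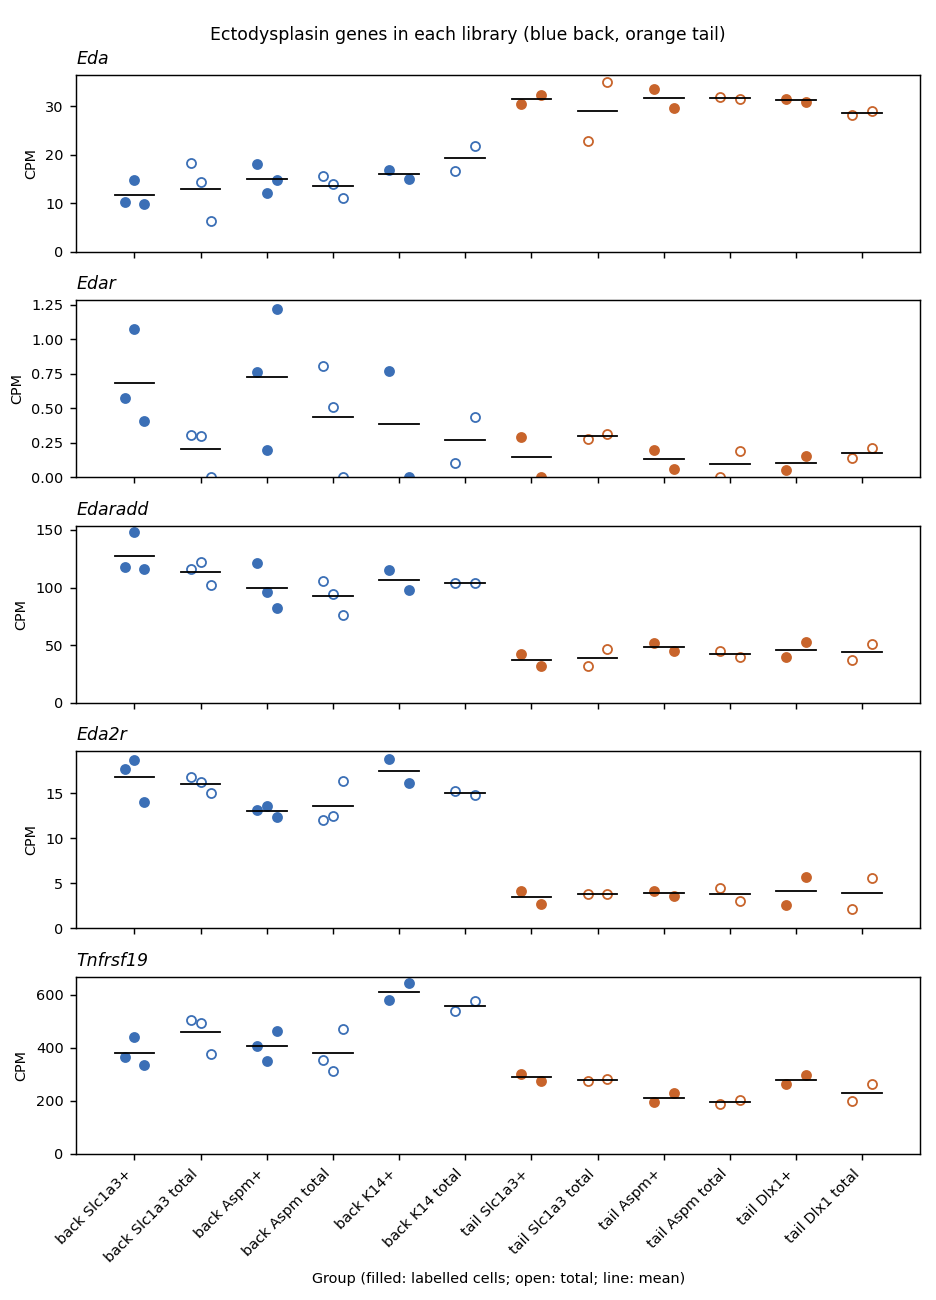
Level of each gene (CPM, linear axis from 0) in each of the 28 libraries by group, with filled points for labelled cells, open points for total IFE and a line at the group mean. For Eda, Edaradd, Eda2r and Tnfrsf19 no back library (blue) overlaps a tail library (orange), whereas for Edar both sites reach 0. How many of all genes tested separate the sites in this way was not counted.

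The largest set of differences lay between the skin sites. Tail IFE carried more Eda and less Edaradd, Eda2r and Tnfrsf19 than back IFE. Site was compared in 3 ways, in total IFE (the mean of the Slc1a3 and Aspm lines), in Slc1a3+ cells and in Aspm+ cells. With edgeR's quasi-likelihood test at an adjusted p under 0.05, 11 of the 15 tests of the members passed. Such differences were common. Over all 17493 genes tested, 46.2% passed in total IFE, 40.6% in Slc1a3+ cells and 27.2% in Aspm+ cells, so that passing alone does not set these genes apart. Those higher in the tail made up 22.5%, 19.0% and 12.7%, and those lower in the tail 23.7%, 21.6% and 14.5%, in the same order. The share of all genes without overlap between the sites was not counted, so a lack of overlap does not set the members apart either. In these bulk samples fewer cells of a type and less RNA per cell cannot be told apart.

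Eda, the ligand, was low in back skin. In the back Slc1a3 totals it stood at 18.2, 14.3 and 6.26 CPM, the lowest of them in the shallow replicate 4, and in the back Aspm totals at 15.5, 13.95 and 10.99 CPM. In the back Slc1a3+ cells it stood at 10.3, 14.7 and 9.81 CPM and in the Aspm+ cells at 18.1, 12.2 and 14.8 CPM. Every tail library was higher, though the share of all genes that separate this way was not counted. The tail Slc1a3 totals had 22.9 and 35.1 CPM and the Aspm totals 31.96 and 31.6 CPM, the Slc1a3+ cells 30.4 and 32.4 CPM, and the Aspm+ cells 33.7 and 29.7 CPM. The K14 libraries of the back (15.01 to 21.9 CPM) and the Dlx1 libraries of the tail (28.2 to 31.5 CPM), which entered no site comparison, lay on the same sides. Eda rose in the tail by 1.19 on the log2 scale in total IFE (SE 0.201, adjusted p = 3.86e-05 with edgeR's quasi-likelihood test). Without the shallow back library the difference was 1.04 (adjusted p = 1.01e-05, edgeR). It rose by 1.43 in Slc1a3+ cells (SE 0.286, adjusted p = 3.36e-04, edgeR) and by 1.08 in Aspm+ cells (SE 0.283, adjusted p = 0.00603, edgeR). The Aspm+ result did not pass without replicate 1 of the tail Aspm+ cells, at 1.002 and an adjusted p of 0.0674 in edgeR, a fit in which the lone remaining tail library is assumed to vary like the other groups.

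Edar, the receptor of the A1 form, was barely counted in any library. It had 0 to 27 counts per library in back skin and 0 to 8 in tail skin, and 5 libraries had none, which allows levels of up to 0.128 to 0.388 CPM. Summed over libraries, 167 counts gave 0.479 CPM of the unscaled totals in the back (95% exact Poisson interval 0.409 to 0.557). In the tail 43 counts gave 0.161 CPM (0.116 to 0.217). These intervals rest on the summed counts alone and leave out the spread between libraries, and libraries of 1 group spread more widely than that. The reads carry no molecular identifiers, so counting error itself may be larger than the intervals show. The back Aspm+ cells held 0.764, 0.199 and 1.22 CPM, and replicates 1 and 4 of the back K14+ cells held 0.772 and 0 CPM. The tail minus back differences of Edar were -0.90 in total IFE, -2.20 in Slc1a3+ cells and -2.40 in Aspm+ cells on the log2 scale (SE 1.08 to 1.60), and 0 of 3 passed in edgeR (lowest adjusted p 0.279). A difference in Edar between sites was therefore not detectable beyond the spread at this depth.

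Edaradd, the adaptor that couples Edar to NF-kappaB, was well counted and moved opposite to the ligand. The back Slc1a3 totals held 115.7, 122.6 and 102.3 CPM and the back Aspm totals 105.8, 94.7 and 76.3 CPM. The tail Slc1a3 totals held 32.2 and 46.3 CPM and the tail Aspm totals 44.9 and 39.99 CPM. The lowest back library is above the highest tail library, though the share of all genes that separate this way was not counted. The same held in labelled cells, with 117.5, 147.9 and 115.8 CPM in back Slc1a3+ cells against 42.2 and 31.8 CPM in the tail. In Aspm+ cells it stood at 121.5, 95.9 and 82.4 CPM in the back against 52.1 and 45.02 CPM in the tail. Edaradd fell by 1.32 on the log2 scale in total IFE (SE 0.149, adjusted p = 1.30e-07, edgeR). In Slc1a3+ cells it fell by 1.78 (SE 0.215, adjusted p = 6.54e-07, edgeR) and in Aspm+ cells by 1.04 (SE 0.208, adjusted p = 5.47e-04, edgeR).

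Eda2r, the receptor of the A2 form, showed the largest site difference of the members that passed. It stood at 16.8, 16.2 and 15.1 CPM in the back Slc1a3 totals and at 12.01, 12.5 and 16.4 CPM in the back Aspm totals. The tail Slc1a3 totals had 3.79 and 3.85 CPM and the tail Aspm totals 4.50 and 3.07 CPM. In labelled cells it stood at 17.7, 18.7 and 14.03 CPM in back Slc1a3+ and 13.2, 13.6 and 12.4 CPM in back Aspm+ cells. The tail counterparts had 4.19 and 2.67 CPM in Slc1a3+ cells and 4.20 and 3.61 CPM in Aspm+ cells. Eda2r fell by 1.96 on the log2 scale in total IFE (SE 0.250, adjusted p = 8.99e-07, edgeR). It fell by 2.29 in Slc1a3+ cells (SE 0.361, adjusted p = 2.29e-05, edgeR) and by 1.74 in Aspm+ cells (SE 0.351, adjusted p = 6.19e-04, edgeR). Within the tail the Dlx1 libraries were the most spread. Replicate 1 held 2.62 CPM in Dlx1+ cells and 2.18 CPM in their total, and replicate 2 held 5.75 and 5.61 CPM, so labelled and total libraries of 1 number lay close together.

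Tnfrsf19, a receptor for which ectodysplasin is not an established ligand, was also lower in the tail, by less. The back Slc1a3 totals held 504.6, 491.8 and 376.9 CPM and the back Aspm totals 354.5, 311.1 and 471.7 CPM. The tail Slc1a3 totals held 274.2 and 281.1 CPM and the tail Aspm totals 189.7 and 203.9 CPM. Over all 28 libraries the sites do not overlap, but the gap is narrow, between 302.4 CPM in a tail Slc1a3+ library and 311.1 CPM in a back Aspm total. How common such a separation is among all genes was not counted. Tnfrsf19 fell by 0.83 on the log2 scale in total IFE (SE 0.128, adjusted p = 1.10e-05, edgeR). It fell by 0.95 in Aspm+ cells, from 406.8, 350.5 and 464.5 CPM to 193.8 and 228.0 CPM (SE 0.181, adjusted p = 3.58e-04, edgeR). In Slc1a3+ cells it stood at 364.3, 440.0 and 333.9 CPM in the back and 302.4 and 274.2 CPM in the tail, and the difference of -0.40 did not pass (SE 0.178, adjusted p = 0.0782, edgeR). That difference passed when libraries were scaled by their totals, at -0.60 (adjusted p = 0.0139, edgeR). Whether the site difference differed between Slc1a3+ and Aspm+ cells was not tested.

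**Figure D2:**
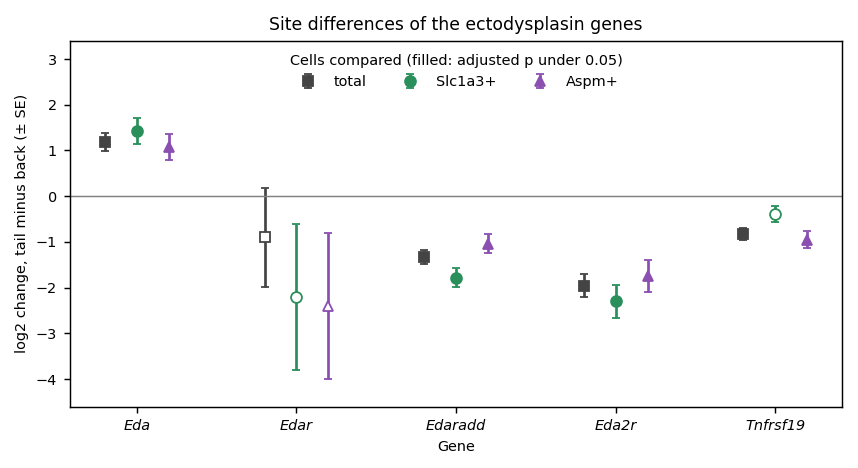
Difference between tail and back (log2, with SE bars from the model) of the 5 genes in total IFE (squares), Slc1a3+ cells (circles) and Aspm+ cells (triangles); filled symbols passed at an adjusted p under 0.05. Eda lies above 0 in all 3 comparisons, at 1.08 to 1.43, Edaradd and Eda2r lie below, and the bars of Edar are the widest.

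Because ligand and adaptor differed in opposite directions, their ratio within a library separated the sites by a wide margin. The ratio restates the differences given above and is not a further finding. How many pairs of genes separate the sites in this way was not counted. Per exon length, Eda stood at 0.0598 to 0.205 of Edaradd in the 16 back libraries, with a median of 0.143. In the 12 tail libraries it stood at 0.555 to 0.997, with a median of 0.701. The ratio of Eda to Eda2r was 0.358 to 1.27 in the back (median 0.790) and 4.46 to 11.2 in the tail (median 7.01). These ratios do not depend on the scaling between libraries. By contrast the ratio of Tnfrsf19 to Edaradd overlapped, at 4.06 to 9.25 in the back and 5.24 to 12.2 in the tail.

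**Figure D3:**
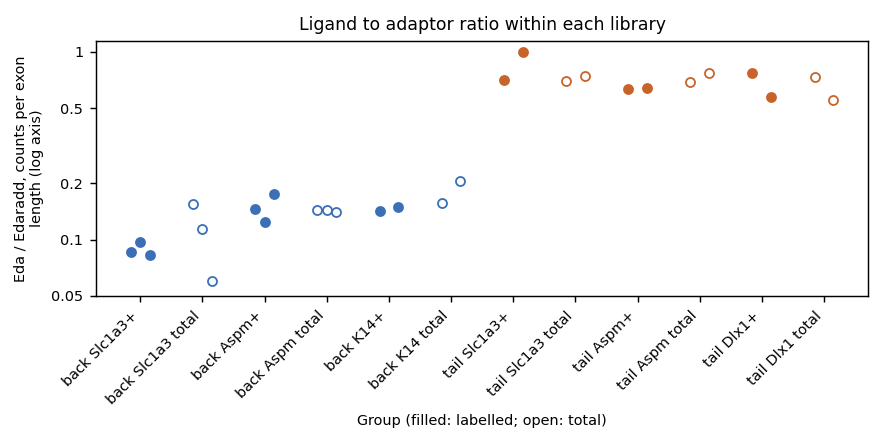
Ratio of Eda to Edaradd counts per exon length (log axis) in each library by group, filled for labelled cells and open for total IFE. Back libraries (blue) lie between 0.0598 and 0.205 and tail libraries (orange) between 0.555 and 0.997.

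Markers of other cells also differed between the sites. Of all genes tested, 46.2% passed in total IFE, 40.6% in Slc1a3+ cells and 27.2% in Aspm+ cells. The fibroblast markers (Col1a1, Col1a2, Col3a1, Dcn, Lum and Pdgfra) summed to 0.968 to 14.7 CPM in back and 21.9 to 39.2 CPM in tail libraries, and 2 of 5 tested were higher in tail total IFE. Dcn made up most of that sum in the tail, at a median of 17.5 CPM against 0.606 CPM in the back. Lum had a median of 0 CPM at both sites. All 10 bulge and germ markers of the hair follicle were tested and 8 were higher in tail total IFE, with sums of 347 to 723 CPM in back and 898 to 1840 CPM in tail totals. In Slc1a3+ cells 1 of the 10 was higher and 0 lower, and in Aspm+ cells 2 were higher and 1 lower. These counts are below the share of all genes in Slc1a3+ cells and near it in Aspm+ cells. Upper follicle and sebaceous markers summed to 501 to 927 CPM in the back and 521 to 1377 CPM in the tail, and in each of the 3 comparisons 4 of 6 (Krt79, Mc5r, Scd1 and Krt17) were higher and Lrig1 was lower. Lrig1, a marker of the follicle junctional zone, stood at 261.2 CPM in back and 93.7 CPM in tail total IFE. Langerhans and T cell markers summed to 16.6 to 156 CPM in the back and 2.04 to 26.2 CPM in the tail, and 4 of 5 tested were lower in tail total IFE. Melanocyte markers summed to 9.37 to 30.03 CPM in the back and 15.1 to 33.9 CPM in the tail, and 4 of 5 were higher and 1 lower in tail total IFE. Suprabasal markers (Krt1, Krt10, Ivl, Lor and Sbsn) summed to 6942 to 14636 CPM in the back and 5867 to 11193 CPM in the tail. In tail total IFE Lor rose by 1.69 and Krt1 fell by 1.07 on the log2 scale. Of the basal genes, Krt14, Krt5 and Itgb4 rose there by 1.47, 0.66 and 0.45, and Itga6 fell by 0.71. The part of any of these cells in the site differences of the members was not tested.

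Among genes of ligand processing and of the relay to NF-kappaB, inhibitors included, those that differed between the sites were mostly lower in the tail. All 25 genes of a list of ligand processing and signal relay were tested. The list was chosen with earlier results of these data known, so its counts and medians are descriptions. In total IFE 3 were higher and 16 lower. The counts were 1 and 15 in Slc1a3+ cells and 2 and 11 in Aspm+ cells. Of all genes tested, 46.2%, 40.6% and 27.2% passed in total IFE, Slc1a3+ cells and Aspm+ cells. The median log2 difference of the list was -0.69, -0.93 and -0.55 in that order, against -0.03, -0.09 and -0.05 over all genes tested, and setting Traf1, which had 0 counts in the tail groups compared, to its bound left these medians as they were. Furin, the protease that releases ectodysplasin, rose in all 3 comparisons, from 99.4 to 158.8 CPM in total IFE (log2 0.67, SE 0.151, adjusted p = 7.97e-04, edgeR). Rela, the p65 subunit of NF-kappaB, rose by 0.50 in total IFE. Traf6, an adaptor that acts below Edaradd, rose there by 0.44 with an adjusted p of 0.0499 in edgeR. The relay genes Tab1, Tab2, Map3k7 and Ikbkg did not pass in total IFE, with log2 differences of 0.12, -0.18, 0.17 and -0.12. Tnfaip3 (A20), an inhibitor that NF-kappaB induces, fell from 65.5 to 11.8 CPM (log2 -2.48, SE 0.225, adjusted p = 4.06e-09, edgeR). Nfkbia and Cyld, which also encode inhibitors, fell by 0.92 and 0.81 on the log2 scale. The subunit genes Nfkb2 and Nfkb1 fell by 1.36 and 0.78 and the adaptor gene Traf2 by 0.90 on the log2 scale. In Slc1a3+ cells Rel, another subunit gene, fell by 1.71 and the kinase gene Ikbkb by 1.22. Traf1 had 231 counts over the 6 back totals compared and 0 over the 4 tail totals, at least 13.9-fold lower against 3 counts per library.

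A list of ectodysplasin targets and placode genes, also chosen with earlier results of these data known, held 18 genes. Of these, 11 had enough counts to be tested. Dkk1 had 0 counts in every library. In total IFE 2 were higher and 6 lower in the tail, in Slc1a3+ cells 0 and 5, and in Aspm+ cells 2 and 5. Over all genes tested 46.2%, 40.6% and 27.2% passed in these comparisons, so the 5 of 11 in Slc1a3+ cells are near the background. The medians were -1.23, -1.82 and -0.66 on the log2 scale, or -1.23, -1.56 and -0.49 with genes at 0 counts set to their bound, against -0.03, -0.09 and -0.05 over all genes. Bmp4, a secreted inhibitor of placodes, fell from 72.3 to 10.3 CPM in total IFE (log2 -2.84, SE 0.203, adjusted p = 7.47e-11, edgeR). Icam1, an adhesion molecule gene that NF-kappaB induces, fell by 1.78, Fst, which encodes the activin antagonist follistatin, by 1.61 and Wnt10b, a Wnt ligand gene, by 1.23. Sostdc1, an antagonist of Bmp and Wnt signals, rose from 173.8 to 262.3 CPM (log2 0.64, SE 0.203, adjusted p = 0.0131, edgeR), and Pthlh rose by 1.75. In Aspm+ cells the 2 higher genes were Pthlh and Lef1, a factor that acts with beta-catenin. Lef1 stood near the floor in the back, at 0.0339 CPM, and at 2.32 CPM in the tail (log2 6.06, SE 1.48, adjusted p = 0.00366, edgeR). In total IFE Lef1 had 30 counts over the back and 68 over the tail totals compared. It did not pass there (adjusted p = 0.0519, edgeR). Cxcl10, a chemokine gene, fell by 3.84 on the log2 scale in Aspm+ cells and by 3.90 in total IFE (SE 0.793, adjusted p = 3.36e-04, edgeR).

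**Figure D4:**
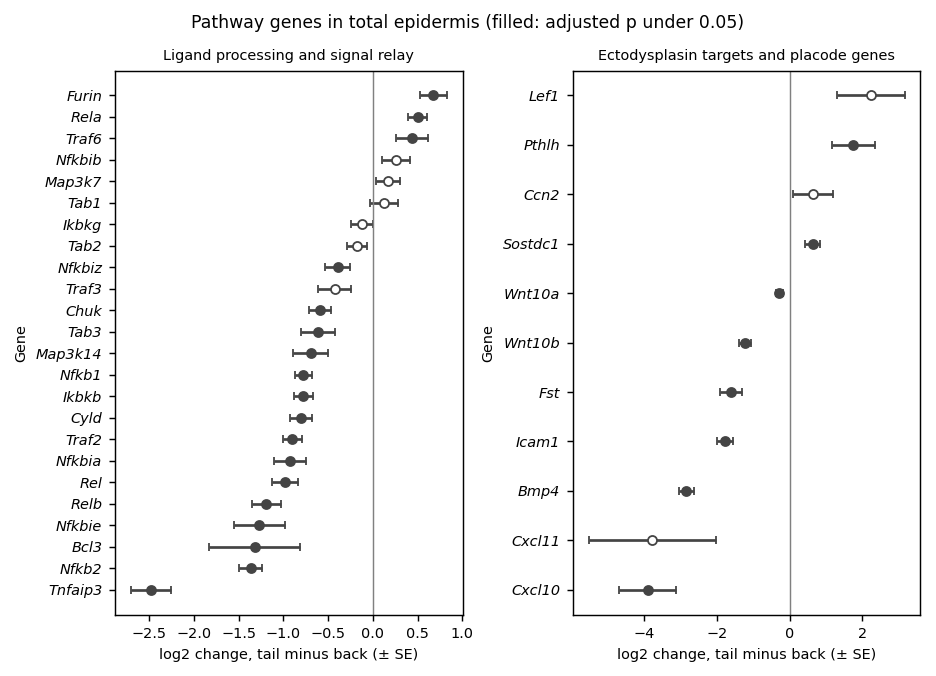
Difference between tail and back in total IFE (log2, with SE bars) of the tested genes of the relay list (left) and of the target and placode list (right), filled where the adjusted p was under 0.05; Traf1, with 0 counts in the tail totals compared, is not drawn. On the left Furin, at 0.67, is highest and Tnfaip3, at -2.48, lowest. On the right Cxcl10, at -3.90, is lowest, and Bmp4 and Icam1 also lie well below 0.

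Within a site, labelled cells and the total IFE of their line held similar levels of the members. In 6 comparisons (3 lines at each site) 0 of 30 tests passed in edgeR, 0 had an unadjusted p under 0.05, and DESeq2 and limma-voom also called 0. With labelled and total libraries of 1 line, site and number taken as pairs, 0 passed as well. Few genes of any kind passed here, namely 0.109% of those tested in back Slc1a3+ cells, 0% in Aspm+ cells and 0.00572% in K14+ cells. In the tail the shares were 0.514% in Slc1a3+, 0.00572% in Aspm+ and 0% in Dlx1+ cells. A missed threshold does not show that levels were equal. The log2 differences ranged from -0.27 to 0.15 for Eda (SE 0.259 to 0.316) and from -0.09 to 0.19 for Edaradd (SE 0.179 to 0.223). They ranged from -0.16 to 0.22 for Eda2r (SE 0.287 to 0.379) and from -0.27 to 0.28 for Tnfrsf19 (SE 0.157 to 0.193). For Edar, with its few counts, they ranged from -0.99 to 1.58 (SE 1.25 to 1.79).

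**Figure D5:**
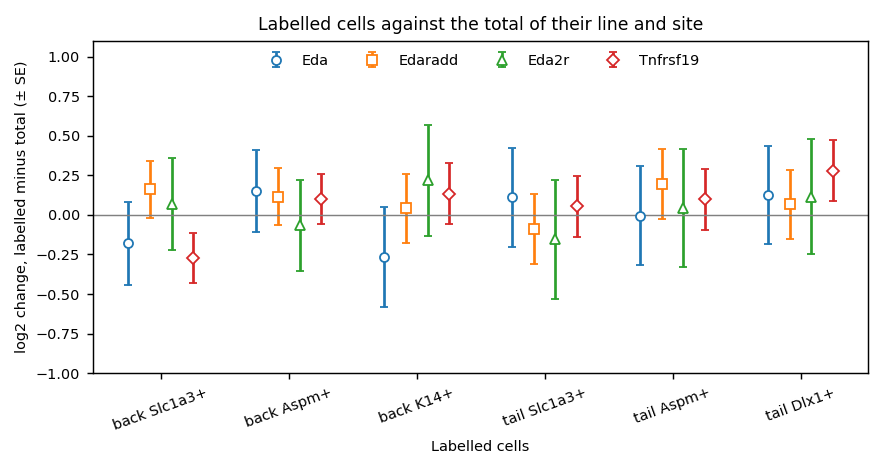
Difference between labelled cells and the total IFE of the same line and site (log2, with SE bars) for Eda, Edaradd, Eda2r and Tnfrsf19; Edar is left out for its few counts. All points lie between -0.27 and 0.28 and none passed at an adjusted p under 0.05.

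Taken pair by pair, the labelled library held more Edaradd than its total in 12 of 14 pairs, at a median log2 ratio of 0.13. It held more Eda2r in 10 of 14 pairs, more Eda and more Tnfrsf19 in 9 of 14 each, and more Edar in 7 of 14. The share of all genes that were higher in as many pairs was not counted, so these counts do not set the members apart. The widest pair for Edaradd went the other way, at -0.55 in replicate 2 of the tail Slc1a3 line (31.8 CPM in labelled and 46.3 CPM in total cells). The pair furthest apart for Eda was replicate 1 of the back Slc1a3 line, with 10.3 CPM in labelled and 18.2 CPM in total cells. Hair follicle markers moved with the gate at the same time. Bulge and germ markers summed to 198 to 1061 CPM in tail labelled cells against 898 to 1840 CPM in tail totals, with all 10 lower in tail Slc1a3+ cells (median log2 -2.21, of which 3 passed). Of the 6 upper follicle and sebaceous markers Lrig1 passed, and fell by 2.98 in tail Slc1a3+ cells, from 83.3 to 10.6 CPM (SE 0.419, adjusted p = 3.58e-04, edgeR). Tnfrsf19 in those same cells stood at 288.3 ± 20.0 CPM (SD, n = 2) against 277.6 ± 4.88 CPM (SD, n = 2) in the total. The part of follicle cells in the members' levels was not tested.

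Among the pathway genes, Sostdc1 and Fst were the ones that differed between labelled cells and total. Sostdc1 fell by 1.51 in back Slc1a3+ cells, from 130.2 to 45.7 CPM (SE 0.269, adjusted p = 0.0142, edgeR). When only the groups compared were fitted, 0 of 14014 genes passed in back Slc1a3+ cells, so Sostdc1 did not pass there in that fit. In tail Slc1a3+ cells Sostdc1 fell by 1.89 (SE 0.330, adjusted p = 0.00352, edgeR). Fst fell from 15.1 to 0.850 CPM in tail Slc1a3+ cells (log2 -4.14, SE 0.577, adjusted p = 3.32e-04, edgeR). None of the 25 relay genes passed in any of the 6 comparisons with edgeR.

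Between lines, 1 of 30 tests of labelled cells passed, and it concerned Tnfrsf19. Back K14+ cells, in which the keratin 14 driver marks basal cells at large, held 579.1 and 643.5 CPM of Tnfrsf19, above every back Slc1a3+ library. The Slc1a3+ cells were lower by 0.69 on the log2 scale (SE 0.174, adjusted p = 0.0342, edgeR). This call did not last, since it was lost without any 1 of the 3 Slc1a3+ or 2 K14+ libraries in turn (adjusted p 0.0513 to 0.343, edgeR). The totals of the same lines showed a smaller difference of the same sign, -0.28 (SE 0.175), with 457.8 ± 70.3 CPM (SD, n = 3) in the Slc1a3 and 557.0 ± 28.4 CPM (SD, n = 2) in the K14 line, which did not pass (adjusted p = 0.334, edgeR). Without adjustment, 4 of the 30 tests of labelled cells and 2 of the 30 of totals had a p under 0.05 in edgeR. Every one of them was for Tnfrsf19. Such p-values were common, since 983 to 3696 of all 17493 genes tested had one in a comparison of labelled cells. Between totals 675 to 4291 genes had one. After adjustment DESeq2 and limma-voom called 1 test each among labelled cells and 0 among totals.

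In the tail, Aspm cells held the least Tnfrsf19, with 193.8 and 228.0 CPM in labelled cells, against 302.4 and 274.2 CPM in Slc1a3+ and 263.1 and 296.9 CPM in Dlx1+ cells. The Slc1a3+ minus Aspm+ difference of 0.45 did not pass (SE 0.194, adjusted p = 0.369, edgeR). The totals of these lines stood in the same order, at mean levels of 196.8 CPM for Aspm, 230.9 CPM for Dlx1 and 277.6 CPM for Slc1a3. Their Slc1a3 minus Aspm difference of 0.50 did not pass either (SE 0.194, adjusted p = 0.455, edgeR). The order was therefore not particular to labelled cells. Eda hardly varied between the tail lines, at 31.4 ± 1.39 CPM in Slc1a3+, 31.7 ± 2.82 CPM in Aspm+ and 31.2 ± 0.444 CPM in Dlx1+ cells (SD, n = 2 each). The share of all genes that passed between labelled cells was 0.16% for back Slc1a3+ against Aspm+, 2.8% for Slc1a3+ against K14+ and 0.2% for Aspm+ against K14+. In the tail it was 0.492% for Slc1a3+ against Aspm+, 5.47% for Slc1a3+ against Dlx1+ and 0.0915% for Aspm+ against Dlx1+. Between the totals of the same pairs it was 0.0114%, 7.76% and 0.0686% in the back and 0.00572%, 1.92% and 0.0343% in the tail, and 0 of 30 tests of the members passed. The difference between lines or sites in the labelled minus total change was tested in 8 terms. Of 40 tests 0 passed, 0 had an unadjusted p under 0.05, and DESeq2 and limma-voom called 0. Over all genes 0.04% passed for tail Slc1a3 against Aspm, 0.0229% for tail Slc1a3 against Dlx1, 0.0915% for Slc1a3 between the sites and 0% for the other 5 terms.

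Within a site the members' levels were related to differing degrees. Across the 16 back libraries the correlation of log2 CPM between Eda and Edaradd was 0.17, and across the 12 tail libraries 0.46. For Edaradd and Eda2r it was 0.44 and 0.71, and for Eda and Eda2r -0.02 and 0.03. Tnfrsf19 correlated with Eda at 0.53 in the back and -0.14 in the tail, with Eda2r at 0.50 and 0.26, and with Edaradd at -0.02 and -0.10. These are descriptions over libraries that share lines and, in pairs, a replicate number. After each site's mean was subtracted, the genes most like Eda over the 28 libraries, among 10050 compared, included Rbms2 (r = 0.86) and Traf3ip2 (0.85). Those most like Edaradd were Tmem131l (0.81), Klhl5 (0.77) and Rfx5 (0.76). For Eda2r they were Ivd (0.72), Zfp111 (0.60) and D16Ertd472e (0.60). Tnfrsf19 was most like Oplah, Oxct1 and Traf2 (0.69 each). Without the subtraction the sites set the order, and Eda was most like Pmm2, Fech and Dcn (0.94 each), Edaradd like Satb1, Wnk2 and Foxn3 (0.97 each), Eda2r like Tnxb (0.97), Clca2 and Pla2g4f (0.96 each), and Tnfrsf19 like Oxct1, Traf2 and Tsc22d1 (0.91 each).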

How the data were processed

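The data are counts of reads per gene, deposited by the authors with 1 value per gene and library and no scaling. Per the submitters' processing notes, reads were handled with Trim Galore 0.6.0, cutadapt, FastQC and STAR 2.7.0e on GRCm38 (mm10), and DESeq2 1.26.0 is named. The counting program, annotation and strand setting are not given in the sources used here, and per the labels' protocols the library kit is non-directional. Of 55536 identifiers 55450 have a symbol in the name table used. Exon lengths are from GENCODE M21 and promoters from RefSeq, whose windows were found for 5 of 5 members.

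Counts were scaled by TMM and kept by filterByExpr (minimum count 10), which left 17493 genes. One model with 12 group means was fitted over the 28 libraries by edgeR 4.0.16 (glmQLFit, robust, 16 residual degrees of freedom, biological coefficient of variation 0.280), adjusted over all genes by Benjamini-Hochberg. The script was tested on simulated data. Alternatives used RLE size factors, library totals, no filter, DESeq2 1.42.0, limma 3.58.1 (voom), only the groups compared, replicate blocks and leaving out each library. Other software was R 4.3.3, Python 3.11.15, numpy 2.4.6, pandas 2.3.3, scipy 1.17.1 and matplotlib 3.10.9.

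Members and lists were chosen with earlier results of these data known. All members are named, and from each list up to 4 passing genes each way per comparison, by lowest p. Named besides this rule are Cxcl10 in total IFE and the relay genes Nfkbia, Cyld, Tab1, Tab2, Map3k7 and Ikbkg. Genes most like a member have a mean of at least 5 CPM, a prior count of 2 and no name of a predicted gene. Up to 3 are named for each member, and 1 gene is not reported here. The labels number the libraries. Deviations from group means over 10376 genes correlated at 0.18 to 0.69 in all 14 pairs of labelled and total libraries of 1 line, site and number, which were taken as pairs. The other shared numbers did not pass this check.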

Additional observations from a re-analysis of the deposited data

How the results depend on the processing

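The count of members that passed for labelled cells between lines was 1 as reported, 0 with RLE size factors and 0 with library totals, and 0 to 1 with 1 library left out. The difference concerned is Tnfrsf19 in back Slc1a3+ against K14+ cells, at -0.64 (adjusted p = 0.0501, edgeR) with RLE size factors and -0.54 (adjusted p = 0.106, edgeR) with library totals. It passed in 9 of 28 fits with 1 library left out, and its adjusted p ranged from 0.0116 to 0.343. The cause was not tested. The counts for the other comparisons stayed within 1.5 times of those reported, and no direction was reversed. Scaling by library totals moved the median of all genes by -0.20 for Slc1a3+ cells between sites, which bears on Tnfrsf19 there. With the replicate block of labelled and total pairs, 0 of 30 members passed against total. The fits with other shared numbers as a replicate block, which the check of pairing did not bear out, gave 12 of 15 between sites, the added one being Tnfrsf19 in Slc1a3+ cells at -0.50 (adjusted p = 0.00386, edgeR), and 1 and 0 of 30 between lines and between totals. Groups of 2 or 3 libraries and the few counts of Edar limit what could be detected.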

Other observations

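Of 14 other receptors of the TNF receptor family, which the report does not describe, 13 were tested between the sites. In total IFE 2 were higher and 5 lower in the tail, in Slc1a3+ cells 2 and 6, and in Aspm+ cells 0 and 5. Over all genes 46.2%, 40.6% and 27.2% passed, so the count in total IFE is near the background. Tnfrsf11a (RANK), the receptor of RANKL, fell from 24.1 to 1.24 CPM in total IFE (log2 -4.40, SE 0.283, adjusted p = 1.07e-11, edgeR). Fas, a death receptor gene, fell from 29.4 to 2.83 CPM (log2 -3.37, SE 0.273, adjusted p = 5.81e-10, edgeR). Ngfr, the p75 neurotrophin receptor gene, fell by 1.80. Tnfrsf14 had 483 counts over the 6 back totals compared and 0 over the 4 tail totals, at least 23.4-fold lower against 3 counts per library. Tnfrsf12a, the receptor of TWEAK, rose from 36.9 to 70.7 CPM (log2 0.92, SE 0.123, adjusted p = 1.65e-06, edgeR), and Relt rose from 0.331 to 1.52 CPM. The median of the list was -0.02 in total IFE, -0.45 in Slc1a3+ cells and -0.13 in Aspm+ cells. Over all genes tested it was -0.03, -0.09 and -0.05. With genes at 0 counts set to their bound, where there was one, the list median in Aspm+ cells was -0.09 and the others stayed as they were.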
